A study of Mus musculus with 2 samples.

Results

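The sympathetic neuron genes examined here are *Th*, *Dbh*, *Slc6a2*, *Npy*, *Hand2*, *Ddc*, *Slc18a2*, *Gata2* and *Gata3*. They were chosen by their known roles in sympathetic neurons, with earlier results of these data in view (their counts and shares of nuclei in both libraries), and were taken by their symbols from the gene list of the count matrix, and each symbol matched 1 row, so that 9 of 32286 genes were followed. The nuclei came from the vagus nerve ganglia, the jugular and nodose ganglia where the somata of vagal sensory neurons lie, of C57BL/6J mice of the genotype Rosa26-floxed-STOP-Cas9-eGFP. These mice were bought at 8 to 9 weeks of age, were kept on a standard chow diet, and had received AAVrg-Cre, a Cre virus that is taken up by nerve endings, in the liver 4 weeks before the ganglia were frozen. The female library was made from 14 ganglia of 7 females and the male library from 16 ganglia of 8 males, each pooled before nuclei were isolated. Both groups carried the transgene and the virus, and no sorting of nuclei is described, so that cells with and without Cre are mixed. With 1 library per sex no difference between the sexes could be tested, and sex, pool and library cannot be told apart. The question put to the data was whether nuclei hold several of the 9 genes together or whether the transcripts lie scattered over all nuclei, in each library on its own.

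Sympathetic neurons of the chain ganglia release noradrenaline. *Th*, tyrosine hydroxylase, makes DOPA from tyrosine, *Ddc* turns DOPA into dopamine, *Slc18a2*, also known as VMAT2, loads dopamine into vesicles, and *Dbh*, dopamine beta-hydroxylase, makes noradrenaline there. *Slc6a2*, the noradrenaline transporter, takes the transmitter back up, and *Npy* encodes neuropeptide Y, which many sympathetic neurons release with it. *Hand2*, *Gata2* and *Gata3* encode transcription factors that sympathetic neurons need to develop. Part of this set serves other cells too: *Gata2* is a transcription factor of endothelial and mast cells, and *Th* and *Ddc* are found in some sensory neurons. The superior cervical ganglion, the uppermost sympathetic ganglion, lies beside the nodose ganglion.

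To show what stands in front of these genes, the start regions of 4 of them are given as examples: *Th* and *Slc18a2* for the whole cAMP response element, *Hand2* for its core, and *Dbh*, the enzyme of the last step, for comparison. RefSeq promoter windows (GRCm38.p6) of 250 bases before and 50 bases after the start were matched for 8 of the 9 genes, 10 windows in all; *Slc6a2* had none. The lines below run from 110 bases before the RefSeq start to 10 bases from it, 5′ to 3′ on the gene's own strand. This start need not be the end of the gene span given further below, and the lines of *Th* and *Dbh* lie within their spans. Motif matches are in capitals: TGACGTCA in *Th* and *Slc18a2*, the E-box CANNTG in *Slc18a2* and *Dbh*, and TGACG in *Hand2*.
Th, chr7:142899986-142900105, minus strand: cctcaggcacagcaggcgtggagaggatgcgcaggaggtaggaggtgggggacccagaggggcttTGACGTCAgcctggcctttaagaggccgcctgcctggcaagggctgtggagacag
Slc18a2, chr19:59260768-59260887, plus strand: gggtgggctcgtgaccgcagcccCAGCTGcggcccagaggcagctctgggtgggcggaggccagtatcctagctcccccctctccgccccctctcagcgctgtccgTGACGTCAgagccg
Dbh, chr2:27165397-27165516, plus strand: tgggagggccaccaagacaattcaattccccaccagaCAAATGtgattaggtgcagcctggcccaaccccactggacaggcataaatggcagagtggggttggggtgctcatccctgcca
Hand2, chr8:57320873-57320992, plus strand: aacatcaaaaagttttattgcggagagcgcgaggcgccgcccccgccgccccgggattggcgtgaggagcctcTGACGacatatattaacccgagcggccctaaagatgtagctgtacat

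The whole cAMP response element, TGACGTCA, reads the same on both strands and began at base −45 in *Th* and base −4 in *Slc18a2*. It was in 2 of the 10 windows, beside 1.79% of the 32851 promoter windows of all genes. Its core TGACG, searched on both strands and counted also within the whole element, was in 4 of 10 windows beside 20.8% of all promoters. The E-box CANNTG, a short motif that matches often, was in 6 of 10 beside 72.3%, the GATA motif GATAA in 2 of 10 beside 25.4%, and TAATTA in 1 of 10, that of *Hand2*, beside 5.29%. *Gata3* and *Gata2*, not shown, have the E-boxes nearest the start, beginning at bases −1 and 18. A match describes the letters and was not tied to any binding.

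In mm10, *Th* lies at chr7:142892752-142931128 and *Ddc* at chr11:11814101-11898144 on the minus strand, *Slc18a2* at chr19:59260896-59296012, *Dbh* at chr2:27165233-27183200 and *Slc6a2* at chr8:92960079-93001667 on the plus strand. *Npy* lies at chr6:49822710-49829507, *Hand2* at chr8:57320983-57324633 and *Gata2* at chr6:88193891-88207032 on the plus strand, and *Gata3* at chr2:9857078-9890034 on the minus strand. All are protein-coding, and *Hand2*, *Ddc*, *Slc18a2* and *Gata3* overlap other annotated genes. For *Hand2*, *Ddc* and *Slc18a2* these lie on the opposite strand, and for *Gata3* on both strands. How reads in the shared stretches were divided was not examined. A level below is the UMIs of a gene per 10000 UMIs of the nuclei named, introns included, and is compared between nuclei and not between genes.

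The female library held 3791 nuclei with 17435300 unique molecular identifiers (UMIs, 1 per captured transcript molecule), and the male library 4923 nuclei with 27529730 UMIs. The median nucleus had 2381 UMIs in the female and 2658 UMIs in the male library. *Xist*, expressed from the inactive X chromosome, had 13424 UMIs in the female and 7 UMIs in the male library, and the Y-linked *Ddx3y* had 12 and 1789 UMIs. In 20 clusters rebuilt without the 9 genes, 669 female nuclei (17.6%) and 1604 male nuclei (32.6%) fell in clusters called neuron-like from their markers. Barcodes found in both libraries numbered 8, and 0 of them held 3 or more of the 9 genes.

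All 9 genes were detected in both libraries, and 8 of them had at least 2-fold more UMIs per 10000 UMIs in the male library. Across all 19305 genes with enough counts, 2.18% were at least 2-fold higher and 4.85% at least 2-fold lower in the male library, and the median gene differed by −0.05 on the log2 scale. The counts of the 9 genes were in view when they were chosen, so that the 8 of 9 is a description only. *Dbh* had 208 UMIs in the female and 2699 UMIs in the male library, a level of 0.119 per 10000 UMIs (95% Poisson interval 0.104 to 0.137) against 0.980 (0.944 to 1.02), or 8.20-fold higher. *Hand2* had 60 and 763 UMIs, which made its level 7.99-fold higher, and *Slc6a2* 503 and 5160 UMIs, 6.49-fold higher. The male excess was smaller for *Slc18a2* (367 and 2467 UMIs, 4.25-fold), *Ddc* (544 and 2647 UMIs, 3.08-fold), *Npy* (199 and 881 UMIs, 2.80-fold) and *Th* (232 and 942 UMIs, 2.57-fold). The GATA factors came last, with 112 and 392 UMIs of *Gata2* (2.21-fold) and 55 and 154 UMIs of *Gata3* (1.76-fold, log2 0.82, interval 0.37 to 1.30). In counts pooled over nuclei, more cells that use a gene and more transcripts per cell cannot be told apart. All intervals here cover counting error only.

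More nuclei also held a UMI of each gene in the male library. *Slc6a2* had a UMI in 4.72% of female nuclei (179 nuclei) and 35.4% of male nuclei (1744 nuclei), and in 2.07% and 15.0% after each nucleus was thinned to 1000 UMIs. Macrophage-like nuclei, which should lack the gene and had medians of 1723 UMIs in the female and 1873.5 UMIs in the male library, held it in 2.94% (4 of 136) and 30.9% (42 of 136) of nuclei. *Dbh* likewise had a UMI in 2.98% of female and 31.7% of male nuclei, against 2.21% and 26.5% of macrophage-like nuclei. A nucleus with a UMI of *Slc6a2* or *Dbh* in the male library was therefore read as background unless more was known of it. For *Gata2* the male shares were further apart, 4.67% of all against 0.735% of macrophage-like nuclei (1 of 136, interval 0.0186 to 4.03%). *Gata3* was in 2.07% of male nuclei, which the same interval of 1 in 136 macrophage-like nuclei covers. After thinning these shares were 1.33% and 0.536% for *Gata2* and 0.469% and 0.339% for *Gata3*. In the female library *Gata2* had 2.03% against 0.735%, but *Gata3* went the other way, with 0.739% against 1.47%. *Slc18a2* lay between, in 25.0% of male and 11.8% of macrophage-like nuclei.

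Nuclei with many of the genes were then counted. In the female library 2964 of 3791 nuclei held 0 of the 9 genes, 677 held 1 and 111 held 2, whereas in the male library 1061 held 0, 1718 held 1 and 1244 held 2. At least 3 genes were held by 39 female nuclei (1.03%, Clopper-Pearson interval 0.732 to 1.40%) and 900 male nuclei (18.3%, 17.2 to 19.4%). At the upper end the female counts did not fall off evenly: 1 nucleus held 5 genes, 1 held 6, 2 held 7, 4 held 8 and 2 held all 9. The male counts flattened in the same range, with 60 nuclei at 5 genes, 30 at 6, 30 at 7, 35 at 8 and 12 at 9. Both libraries thus had a long tail of nuclei that held most or all of the genes.

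**Figure D1:**
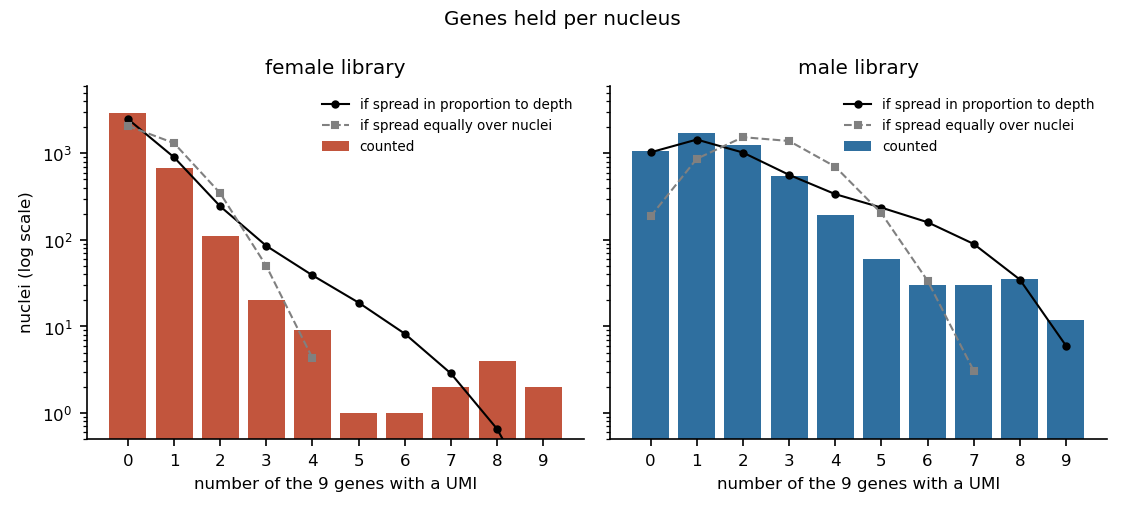
Number of nuclei (log scale) by how many of the 9 genes had at least 1 UMI, in the female (left) and male (right) library; bars are counted nuclei, the black line the number worked out if each gene's UMIs were spread in proportion to depth, and the dashed grey line the number if they were spread equally over nuclei. The female bars fall to 1 nucleus at 5 and at 6 genes and rise to 4 nuclei at 8 genes, and the male bars level off at 30 to 35 nuclei from 6 to 8 genes.

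These counts were set beside 2 sums that scatter the same UMIs. If the UMIs of each gene were spread over the nuclei of a library in proportion to depth, 155 female and 1430 male nuclei would hold at least 3 genes, and 11.8 and 291 nuclei at least 6, more than were counted (9 and 107 nuclei at 6 or more). Nuclei with 8 or more genes numbered 6 in the female library where this sum gave 0.726, and 47 in the male library where it gave 40.9; all 9 genes were held by 2 female nuclei (0.0704) and 12 male nuclei (6.01). If the UMIs were instead spread equally over nuclei, 0.00766 female and 37.1 male nuclei would hold 6 or more genes. The sum by depth puts many UMIs into the deepest nuclei, but in the male library the UMIs outside the many-gene nuclei rose less than depth did. In male nuclei with fewer than 6 genes, those under 2000 UMIs held on average 1.28 UMIs of the 9 genes and those of at least 10000 UMIs held 3.13, so that their summed level fell from 7.95 to 1.57 per 10000 UMIs. The female summed level was 1.14 under 2000 UMIs, 0.719 from 2000 to 4000 UMIs and 0.742 from 10000 UMIs. The sum thus did not fall further in the deep nuclei, but single genes went different ways. Female *Dbh* fell from 0.157 under 2000 UMIs to 0.0292 from 10000 UMIs, and *Slc6a2* from 0.258 to 0.0305. Female *Th* rose from 0.101 to 0.163 and *Ddc* from 0.193 to 0.318. In the male library *Dbh* fell from 1.84 to 0.251 and *Th* from 0.501 to 0.193. By pairs of genes, 3 of 36 pairs in the female and 1 of 36 in the male library were held together by more nuclei than the sum by depth gives.

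Among deep nuclei, where a gene is less often missed, the female counts had a gap at 5 and 6 genes that the male counts did not have. Of 334 female nuclei with at least 10000 UMIs, 307 held 0 to 2 of the genes, 20 held 3 or 4, 0 held 5 or 6, and 7 held 7 to 9. The summed level of the 9 genes had a median of 2.84 per 10000 UMIs in the nuclei with 3 or 4 genes and 34.6 (7.75 to 69.2) in the 7 nuclei with 7 to 9 genes. Of 717 such male nuclei, 421 held 0 to 2 genes, 209 held 3 or 4, 35 held 5 or 6, and 52 held 7 to 9, with medians of 2.51, 4.50 and 32.6 per 10000 UMIs in the last 3 ranges. The male range of 7 to 9 genes reached from 1.66 to 92.4 per 10000 UMIs and overlapped the ranges below it, which the female range of 7 to 9 genes did with 3 or 4 genes as well (0.935 to 21.6).

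The nuclei with 6 or more genes were described further, a limit chosen after the counts were seen. They were 9 of 3791 female nuclei (0.237%, 0.109 to 0.450%) and 107 of 4923 male nuclei (2.17%, 1.78 to 2.62%), and they carried 39.4% and 44.6% of all UMIs of the 9 genes. Their pooled level was 40.9 per 10000 UMIs against 0.803 in all other female nuclei, and 31.9 against 3.53 in the male library. The limit is not a gap in the male library, where the 60 nuclei with 5 genes had a median level of 14.6 and the 30 nuclei with 6 genes one of 19.3 per 10000 UMIs. In the female library the 1 nucleus with 5 genes had 12.2 and the 1 nucleus with 6 genes 24.6 per 10000 UMIs.

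Most of these nuclei were neuron-like. In the female library 6 of the 9 fell in neuron-like clusters, all in cluster 9, and 1 each in the adipocyte-like, pituitary cell-like and satellite glia-like class. In the male library 93 of 107 were neuron-like, of which 45 lay in cluster 9, 33 in cluster 14, 9 in cluster 17, 4 in cluster 3 and 2 in cluster 6. Of the other 14, 8 were satellite glia-like, 3 Schwann cell-like, 2 endothelial cell-like and 1 pituitary cell-like. Macrophage-like, fibroblast-like and barrier fibroblast-like nuclei had 0 in either library, with 0 of 136 macrophage-like nuclei in each (interval up to 2.68%). Depth limits these counts. In the male library the medians of these 3 classes were 1873.5, 1757.5 and 2699 UMIs, against 7573.5 UMIs in neuron-like nuclei and 12987 UMIs in the 107 nuclei. Class and depth are therefore not told apart here. The 8 satellite glia-like male nuclei had a summed level of the 10 neuron markers of 64.1 per 10000 UMIs, against 49.4 in other satellite glia-like nuclei, together with a satellite glia marker level of 33.9 against 43.2. Markers of both classes were thus held by these 8 and by the other satellite glia-like nuclei, and whether the 8 are doublets was not tested.

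**Figure D2:**
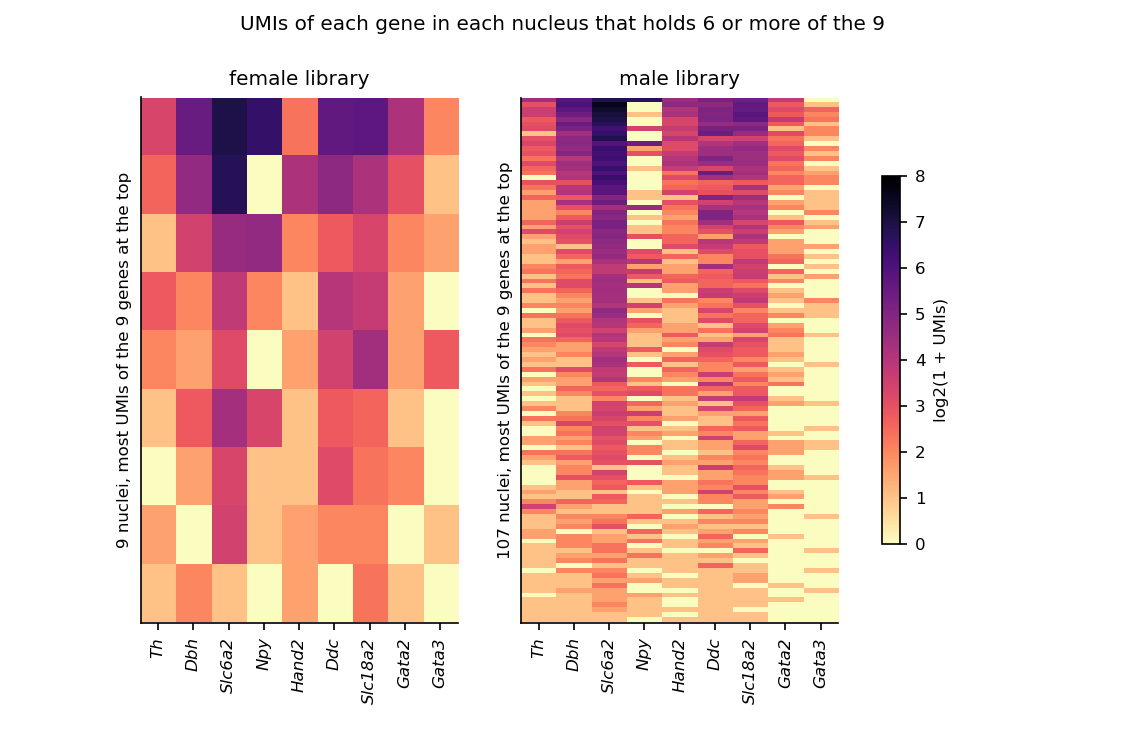
UMIs of each of the 9 genes, as log2(1 + UMIs) in colour, in every nucleus that holds 6 or more of them, 9 female (left) and 107 male (right), sorted by their summed UMIs. *Slc6a2* is dark in the upper rows of both panels, *Npy* switches between dark and empty from row to row, and *Gata3* is empty in most male rows.

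The female nucleus with most UMIs of these genes had 56481 UMIs in all, of which 123 were *Slc6a2*, 90 *Npy*, 52 *Slc18a2*, 49 *Ddc*, 44 *Dbh*, 17 *Gata2*, 9 *Th*, 4 *Hand2* and 3 *Gata3*. The second, with 42785 UMIs, had 109 UMIs of *Slc6a2*, 26 of *Ddc*, 25 of *Dbh*, 17 each of *Slc18a2* and *Hand2*, 7 of *Gata2*, 5 of *Th*, 1 of *Gata3* and 0 of *Npy*. The male nucleus with most had 59082 UMIs, with 115 of *Slc6a2*, 105 of *Npy*, 54 of *Dbh*, 40 of *Slc18a2*, 36 of *Ddc*, 22 of *Hand2*, 20 of *Th*, 12 of *Gata2* and 0 of *Gata3*. Each of these nuclei held the whole route from tyrosine to released and recaptured noradrenaline in many molecules for most steps. At the other end, the male nuclei with 6 genes included some with a single UMI of each.

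Gene by gene, the levels in the neuron-like nuclei with 6 or more genes were close in the libraries for most of the set. The transporter *Slc6a2* was held by 6 of 6 female nuclei (8 to 123 UMIs, median 18) and 93 of 93 male nuclei (1 to 190, median 15), at 14.3 (12.7 to 16.1) and 13 (12.5 to 13.5) per 10000 UMIs. *Dbh* was held by 6 of 6 and 92 of 93 nuclei, at 4.32 and 3.95 per 10000, and *Slc18a2* by 6 of 6 and 91 of 93, at 5.73 and 4.56. *Ddc* stood at 5.73 and 4.42, *Th* at 1.21 and 1.25, and *Hand2* at 1.41 and 1.75 per 10000. Further apart were *Npy* (5.98 female, 1.71 male), *Gata2* (1.71 and 0.961) and *Gata3* (0.603 and 0.316). Over all nuclei with 6 or more genes, the male over female difference was −0.14 on the log2 scale for *Dbh* (−0.44 to 0.19), −0.16 for *Slc6a2* (−0.32 to 0.02), −0.05 for *Th* (−0.59 to 0.59) and 0.22 for *Hand2* (−0.27 to 0.80), intervals that all reach 0. *Ddc* (−0.37, −0.64 to −0.08), *Slc18a2* (−0.34, −0.61 to −0.06), *Gata2* (−0.81, −1.31 to −0.24) and *Npy* (−1.67, −1.95 to −1.37) had lower values in the male nuclei, but these rest on the 1 female nucleus with most UMIs of the 9 genes. Without it, an alternative chosen after the values were seen, the female level of *Ddc* and of *Slc18a2* was 4.54 per 10000 beside 4.35 and 4.54 in the male library. *Npy* then differed by −0.38 (−0.84 to 0.14) and *Gata2* by −0.34 (−0.98 to 0.46). The difference of *Gata3* did not shrink, at −0.98 (−1.80 to 0.05) with that female nucleus and −1.04 (−1.95 to 0.14) without it. The genes chose these nuclei and there is 1 library per sex, so the levels are given as a description.

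*Npy* was uneven from nucleus to nucleus. Of the neuron-like nuclei with 6 or more genes, 2 of 6 female and 34 of 93 male nuclei held 0 UMIs of *Npy*, whereas 0 lacked *Slc6a2* in either library. *Gata3*, with far fewer UMIs, was missed more often in the male library and was held by 39 of 93 nuclei. The male nuclei without *Npy* had a median of 21171.5 UMIs, and the 26 nuclei with 3 or more *Npy* UMIs one of 8890.5. *Npy* itself counts towards the 6 genes, so that a nucleus without it had to reach 6 from the other genes. The limit thus partly sets this order of depth, and whether missing *Npy* goes with depth was not tested. Of 36 male nuclei with at least 20 UMIs of *Slc6a2*, 20 held 0 of *Npy*. The 5 male nuclei with most *Npy* carried 53.9% of its 369 UMIs in this group, against 26.0% for *Slc6a2* and 26.5% for *Gata3* in their own top 5 nuclei. The female *Npy* level of 5.98 per 10000 rests largely on the 1 nucleus with 90 of 119 UMIs.

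Genes that played no part in choosing the nuclei were compared between neuron-like nuclei with 6 or more of the 9 genes and other neuron-like nuclei. Across all genes, 14.2% were at least 2-fold higher and 14.9% at least 2-fold lower in the 6 female nuclei, and 7.16% and 10.3% in the 93 male nuclei, so that a 2-fold difference alone says little in the female library. Of the 39 genes in 4 lists of the same pathway and cell type, 13 were at least 2-fold higher in both libraries. These were *Adra2a*, *Adra2c*, *Chgb*, *Chrna3*, *Chrnb4*, *Cyb561*, *Gch1*, *Maoa*, *Maob*, *Ngfr*, *Phox2a*, *Slc18a1* and *Tfap2b*. At least 2-fold lower in both were *Tlx3* and *Galr1*, the latter with 0 UMIs in the female nuclei. The share of all genes higher in both libraries was not worked out, so that the 13 of 39 is a description only. The female intervals of *Chgb* (−0.01 to 2.10) and *Adra2c* (−2.20 to 2.84) reached 0. Without the 5% of nuclei with most UMIs, which leaves 1 female nucleus, 8 genes passed, 7 of them among the 13. Without the 1 female nucleus with most UMIs of the 9 genes 11 of the 13 passed, all but *Adra2a* and *Adra2c*.

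Enzymes around the noradrenaline pathway were higher in the same nuclei. Of 10 counted genes for cofactor, breakdown and transport, 6 (female) and 5 (male) were at least 2-fold higher, with a list median of 2.17 and 1.04 on the log2 scale beside 0.04 and −0.03 over all genes. *Gch1*, which makes the cofactor of tyrosine hydroxylase, was at 1.11 per 10000 UMIs against 0.050 in the female library (log2 4.47, 3.64 to 5.25) and 0.933 against 0.137 in the male library (2.77, 2.49 to 3.05). *Cyb561*, whose protein brings electrons for dopamine beta-hydroxylase into the vesicle, was higher by 4.96 and 3.33, and *Maoa*, which breaks noradrenaline down, by 3.67 and 2.37. *Pnmt*, which makes adrenaline from noradrenaline, and *Slc6a3*, the dopamine transporter, had 0 UMIs in these nuclei in both libraries. The other neuron-like nuclei had 0 UMIs of *Pnmt* as well, and 0 (female) and 1 (male) of *Slc6a3*. *Pts* and *Qdpr*, which make and recycle the cofactor, had intervals that reached 0 in both libraries.

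Among transcription factors, *Phox2a*, which switches on *Dbh* and *Th* in autonomic neurons, was in 4 of 6 female nuclei against 28 of 663 other neuron-like nuclei (log2 4.97) and in 70 of 93 male nuclei against 169 of 1511 (3.23). *Tfap2b*, a factor of the sympathetic line, was in 5 of 6 against 3 of 663 (8.0) and in 56 of 93 against 35 of 1511 (4.93). *Hand1*, a relative of *Hand2*, was in 3 of 6 against 2 of 663 female nuclei, too few UMIs to be counted there, and in 34 of 93 against 31 of 1511 male nuclei (3.99). *Isl1*, which sensory and sympathetic neurons share, differed by 0.10 (−0.43 to 0.55) and 0.12 (−0.03 to 0.26). *Tlx3*, a factor of sensory neurons, was lower (−2.52 and −1.34). In all, 2 of 6 counted factors in the female and 3 of 7 in the male library were at least 2-fold higher, and the list medians were −0.18 and 0.12.

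Receptors of sympathetic neurons were at least 2-fold higher in 6 of 10 cases in each library, 5 of them shared. *Chrna3* and *Chrnb4*, subunits of the nicotinic receptor through which sympathetic neurons are driven, were higher by 2.24 and 1.58 in the female and by 1.53 and 1.35 in the male library on the log2 scale. *Adra2a*, a receptor by which noradrenaline limits its own release, was higher by 4.13 and 2.75. *Ntrk3*, the receptor of neurotrophin 3, went opposite ways, 1.0 for the female and −2.19 for the male nuclei. Genes of the dense core vesicle and its peptides went both ways, with 2 of 8 (female) and 1 of 8 (male) at least 2-fold higher, 3 of 8 and 2 of 8 at least 2-fold lower, and medians of −0.68 and −0.58. *Chgb*, a granin, was higher by 1.22 and 2.69, while *Scg2* and *Scg3* lay below the other neuron-like nuclei in both libraries.

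**Figure D3:**
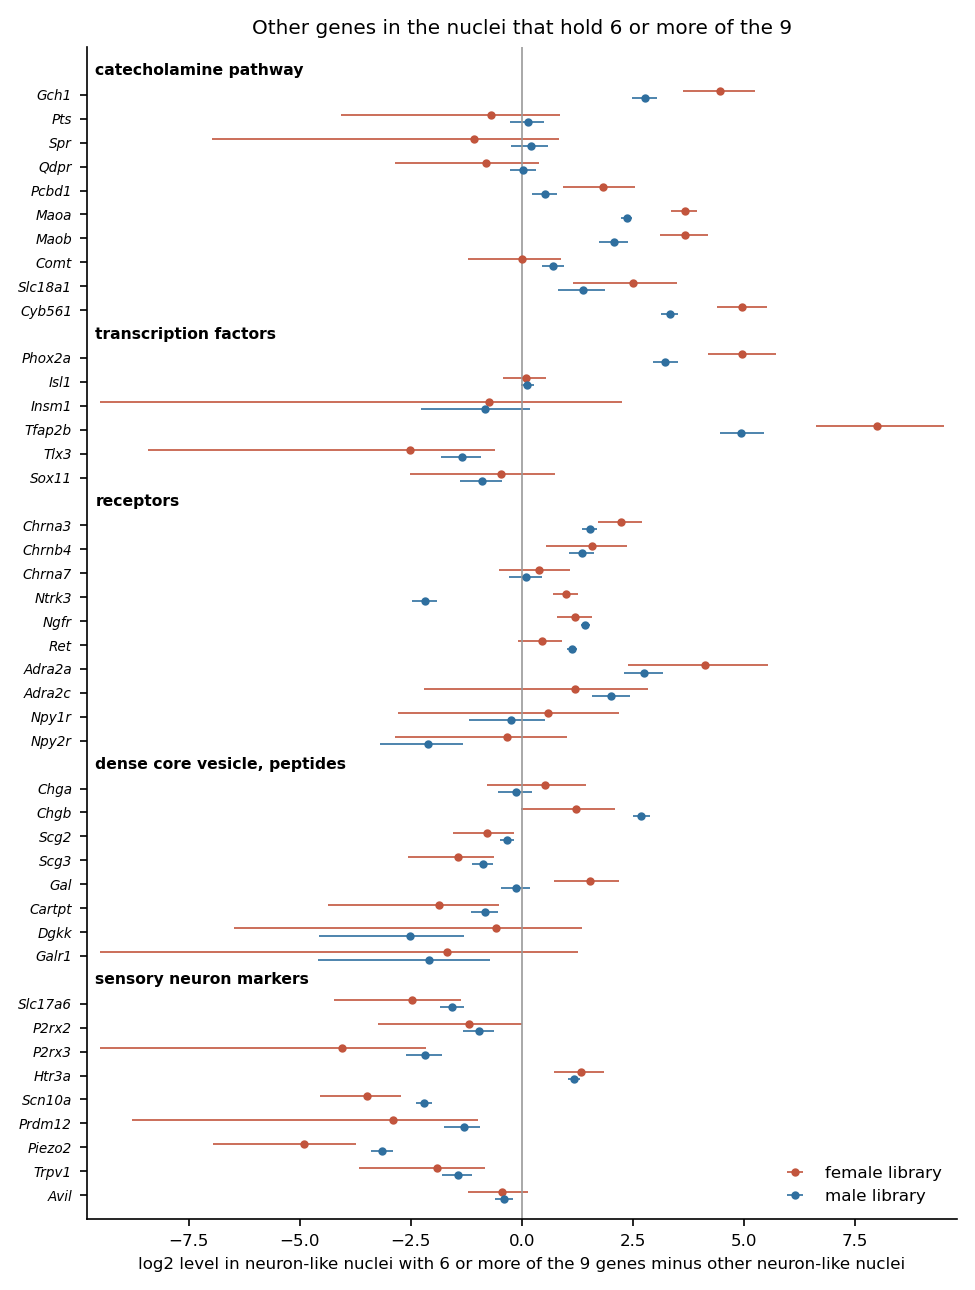
Log2 difference in level of other genes between neuron-like nuclei with 6 or more of the 9 genes (6 female, 93 male) and other neuron-like nuclei, by list, with 95% intervals that cover counting error only; genes with under 20 UMIs in the comparison are left out and bars past the axis end at its edge. *Gch1*, *Maoa*, *Cyb561*, *Phox2a* and *Tfap2b* lie to the right of 0 in both libraries and *Piezo2*, *Scn10a* and *P2rx3* to the left.

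Sensory neuron markers were mostly low in the same nuclei. Of 9 counted, 7 (female) and 6 (male) were at least 2-fold lower, with list medians of −2.46 and −1.44. *Piezo2*, a touch and stretch channel, was at 0.201 per 10000 UMIs against 6.82 in the female library (log2 −4.91, −6.96 to −3.73) and 0.687 against 6.08 in the male library (−3.14, −3.39 to −2.91). Of its 148 UMIs in the male many-gene nuclei, 50 lay in a single nucleus with 96425 UMIs in all. *Scn10a*, a sodium channel of nociceptors, was also lower (−3.49 and −2.20), as were *P2rx3*, an ATP receptor (−4.04 and −2.17), and *Slc17a6*, the vesicular glutamate transporter (−2.46 and −1.57). *Htr3a*, a serotonin receptor, was the exception among the 9, at least 2-fold higher in both libraries (1.34 and 1.18). Of general neuron markers, *Syn2*, a synaptic vesicle protein, was higher by 2.43 and 1.66, while *Rbfox3* was lower (−1.08 and −1.32). The acetylcholine genes *Chat* and *Slc18a3* had 0 UMIs in the female nuclei, and 2 and 0 UMIs in the male nuclei. The other neuron-like nuclei were nearly as empty, with 0 and 2 UMIs (female) and 15 and 6 UMIs (male), so these counts do not set the nuclei apart. Of 3 counted genes in the list of cholinergic autonomic neurons, 2 (female) and 3 (male) were at least 2-fold lower. *Slc5a7* of that list differed by −0.18 (−1.60 to 0.79) in the female library.

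Markers of other cells were examined in the same nuclei. The 8 satellite glia markers summed to 3.92 per 10000 UMIs in the 6 female nuclei against 5.79 in other neuron-like nuclei, and to 9.13 against 7.24 in the male library, with *Hes1* at 0 in the female nuclei. *Kit* was the mast cell marker counted in both libraries, at 2 UMIs in the female and 45 UMIs in the male nuclei, and 7 and 6 of the 8 mast cell markers were at 0. The medians of the fibroblast, mural and endothelial lists were 0.04, 0.27 and −0.65 in the female and 0.70, 0.31 and 0.26 in the male library, and their part in the result was not tested.

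Of the chromaffin and glomus cell markers, 2 of 5 counted in the female and 2 of 6 in the male library were at least 2-fold higher, *Slc18a1* and *Chgb*, and *Kcnk9*, a potassium channel, was lower (−2.00 and −2.40).

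Outside every list, *Hand2os1*, the long noncoding transcript that starts beside *Hand2* on the other strand, set these nuclei apart in the female library. It was in 6 of 6 female nuclei with 8 to 52 UMIs each, and in 0 of 663 other neuron-like nuclei. In the male library 83 of 93 nuclei held it against 136 of 1511 (log2 5.20, 5.01 to 5.40). *Hand2os1* overlaps *Hand2* on the opposite strand in the annotation, and how reads in the shared stretch were divided was not examined. *Tbx20*, a T-box factor, was in 5 of 6 female nuclei against 1 of 663, and in 68 of 93 male nuclei against 80 of 1511 (4.78). Next in the order of the male ratio came *Fam163a* (5.83 for the female, 4.71 for the male nuclei) and *Gucy1a1*, a subunit of the nitric oxide receptor (6.02 and 4.22). Neuron-like nuclei that hold *Dbh* (33 female, 615 male) include 6 and 92 of the many-gene nuclei, so that their order of genes is not a separate result. In these nuclei *Hand2os1*, *Fam163a*, *Tfap2b*, *Gata2*, *Tbx20*, *Slc6a2*, *9330158H04Rik*, *Hand2* and *Npy* were the genes with the highest ratio after *Dbh* itself, and in the female library 176 of 176 UMIs of *Hand2os1* and 285 of 286 of *Slc6a2* lay in the 6 many-gene nuclei.

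The many-gene nuclei carried 56.3% of the male UMIs of *Slc6a2* and 33.0% of those of *Dbh*, and the rest lay in all classes of nuclei. In the male library *Dbh* outside the many-gene nuclei stood between 0.421 per 10000 UMIs in neuron-like and 1.77 in fibroblast-like nuclei, and *Slc6a2* between 0.540 and 2.17 in the same classes. These classes differ in depth, with medians of 7285 and 1757.5 UMIs, and per nucleus their order was reversed. A neuron-like nucleus held on average 0.452 UMIs of *Dbh* and 0.580 of *Slc6a2*, and a fibroblast-like nucleus 0.348 and 0.426. Each class of male nuclei held them, macrophage-like nuclei at 1.45 (1.05 to 1.96) for *Dbh* and 1.83 (1.37 to 2.40) for *Slc6a2*. The female macrophage-like level was 0.110 (0.0227 to 0.321) and 0.147 (0.0399 to 0.375), so that male macrophage-like nuclei had 11.4-fold and 11.2-fold more. Over all nuclei with fewer than 6 genes the male level was 10.8-fold higher for *Dbh* and 8.15-fold for *Slc6a2*, whereas in nuclei with 6 or more genes it was 0.910-fold and 0.896-fold. The last values rest on nuclei chosen by these genes and on few female nuclei: without the female nucleus with most UMIs the female level was 3.13 per 10000 for *Dbh* and 11.8 for *Slc6a2*, beside 3.95 and 12.9 in the male library. The level of the other nuclei, if spread by depth over all nuclei of its library, would by itself put 6 or more genes into 2.48 female and 125.5 male nuclei, where 9 and 107 were counted, and if spread equally into far fewer (2.72 male nuclei). The summed level of the 93 neuron-like male nuclei reached from 1.66 to 94.4 per 10000 UMIs (median 34.3), so that they need not be alike. The lowest had 96425 UMIs in all, with 50 of *Piezo2*, 44 of *Scn10a* and 0 of *Hand2os1*. Another, at 2.24 per 10000 of 84881 UMIs, held 27 of *Slc17a6* and 25 of *Scn10a*. How many of the male many-gene nuclei owe single genes to scatter was not tested.

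**Figure D4:**
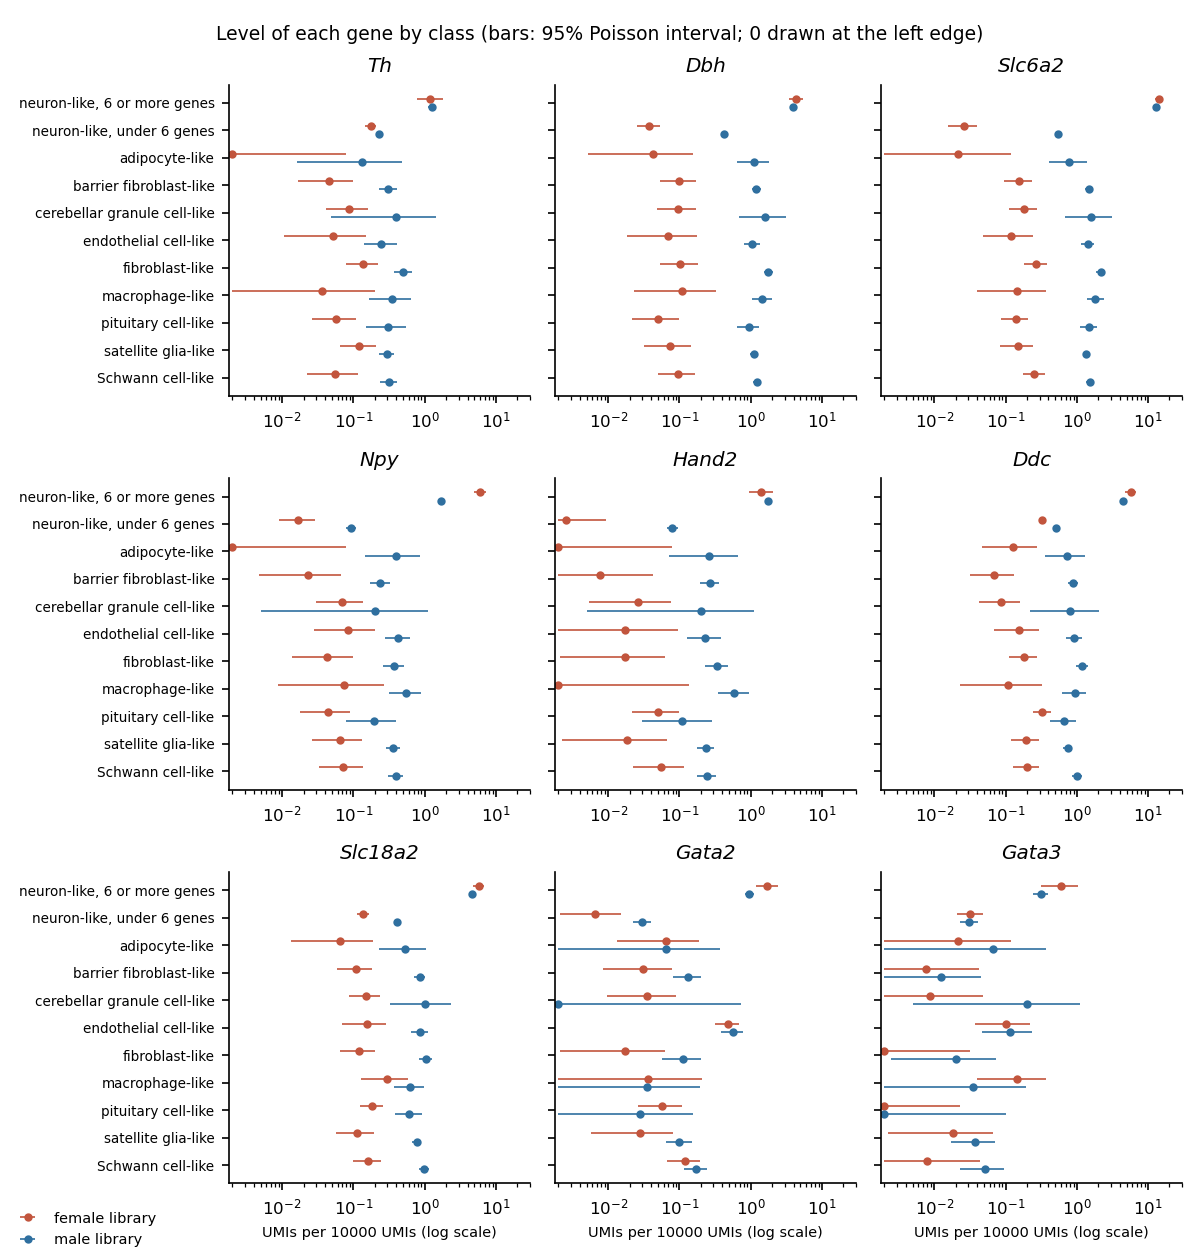
Level of each of the 9 genes in UMIs per 10000 UMIs (log scale) in neuron-like nuclei with 6 or more genes (top row of each panel) and in each class with those nuclei left out, in the female (red) and male (blue) library, with 95% Poisson intervals; levels of 0 are drawn at the left edge. For *Dbh* and *Slc6a2* the male points stand to the right of the female points in every class with fewer than 6 genes and beside them in the top row, and *Gata2* has its highest class level in endothelial cell-like nuclei.

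In most male classes the scattered transcripts of *Dbh* and *Slc6a2* were in a similar ratio, which differed from that of the many-gene nuclei. In neuron-like nuclei with 6 or more genes there were 0.302 UMIs of *Dbh* for each UMI of *Slc6a2* in the female library, and the male value was 0.304. In all other male nuclei the ratio was 0.801, with 0.805 in Schwann cell-like, 0.809 in satellite glia-like, 0.817 in fibroblast-like and 0.792 in macrophage-like nuclei, and it ranged over the classes from 0.630 in pituitary cell-like to 1.42 in the 42 adipocyte-like nuclei. Other female nuclei had a ratio of 0.601 from 113 UMIs of *Dbh* and 188 of *Slc6a2*. Set against their level in the many-gene nuclei, the genes also differed in how high they stood in other nuclei. Such a share compares levels only, and where the transcripts in other nuclei came from was not tested. In male nuclei that are not neuron-like, *Dbh* had 31.4% (29.5 to 33.2%) of its level in the many-gene nuclei, *Th* 25.5%, *Ddc* 20.6%, *Slc18a2* 19.0%, *Hand2* 14.8% and *Slc6a2* 11.7%, whereas *Hand2os1* had 2.98% (2.54 to 3.46%) and *Tbx20* 4.61%. Of other genes that played no part in choosing the nuclei, *Tfap2b* was also low in these male nuclei, at 5.94%. *Phox2a* stood at 25.2%, *Cyb561* at 23.3%, *Gch1* at 29.4%, *Maoa* at 23.4% and *Chgb* at 31.2%. A low share therefore did not part the genes that chose the nuclei from other genes. In the female library the figures were 2.05% for *Dbh*, 1.24% for *Slc6a2* and 0.609% for *Hand2os1*. They were higher for *Th* (6.04%), *Maoa* (7.07%) and *Gch1* (8.70%). *Chgb* stood at 88.5% (79.8 to 97.9%), with a level of 0.401 per 10000 UMIs in female nuclei that are not neuron-like against 0.453 in the many-gene nuclei.

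**Figure D5:**
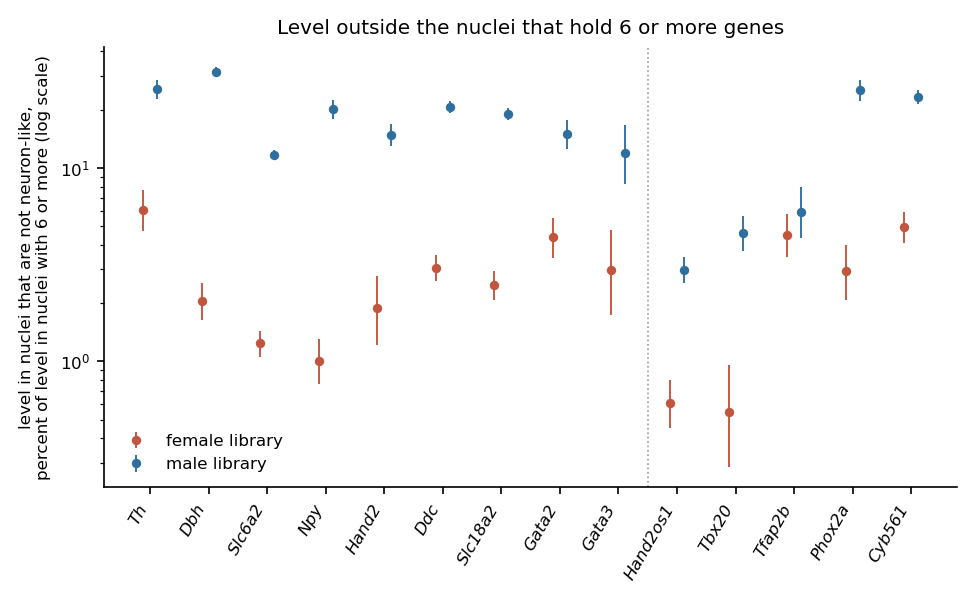
Level of each gene in nuclei that are not neuron-like and hold fewer than 6 of the 9 genes, as a percentage (log scale) of its level in neuron-like nuclei with 6 or more, in the female (red) and male (blue) library; bars are 95% intervals from the UMIs outside, and the dotted line parts the 9 genes from 5 others. The male points of the 9 genes lie between 11.7 and 31.4%, and those of *Hand2os1*, *Tbx20* and *Tfap2b* below 6%. Not every gene outside the 9 was this low, and the text gives further values.

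Neuron-like nuclei as a class did not stand above the others by much. With all nuclei, 4 of the 9 genes were at least 2-fold higher in neuron-like than in other nuclei in the female library (*Th* 1.37, *Ddc* 1.34, *Gata3* 1.27 and *Npy* 1.23 on the log2 scale), where 11.6% of all genes were higher and 21.4% lower, and 0 of 9 in the male library, where 14.2% were higher and 17.9% lower. Over all genes the median difference was −0.25 and −0.21. Without the nuclei with 6 or more genes, *Th* stayed at least 2-fold higher in the female library (1.25, 0.83 to 1.69). *Ddc* (0.92, 0.63 to 1.21) and *Gata3* (0.83, −0.10 to 1.82) kept most of their difference below that limit, whereas *Npy* fell to −1.80 (−2.84 to −0.96). *Slc6a2* then stood at −2.75 (female) and −1.49 (male). Its UMIs per nucleus were 0.0302 in neuron-like against 0.0539 in other nuclei (female), and 0.580 against 0.418 (male).

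*Th* and *Ddc* were also held by other neuron-like nuclei. With the many-gene nuclei left out, *Ddc* in the female library was at 0.750 per 10000 UMIs (0.644 to 0.869) in cluster 9 and 0.663 in cluster 14 but 0.020 (0.00798 to 0.0409) in cluster 6, and *Th* was at 0.254, 0.466 and 0.085 in the same clusters. Male nuclei showed a like order for *Ddc*, with 0.695, 0.577 and 0.177, and for *Th*, with 0.243, 0.350 and 0.084. In the male library *Ddc* was no lower elsewhere, at 0.954 in the shallow cluster 3 and at 0.911 in nuclei that are not neuron-like. The antisense transcript *1700042O10Rik*, which overlaps *Ddc*, was at 0.602 and 0.648 in cluster 9 of the female and male library, close to *Ddc*, but lower than *Ddc* elsewhere, at 0.233 in male cluster 3 and 0.031 in male nuclei that are not neuron-like. Reads in the overlap could have gone to either.

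Nuclei with at least 2 UMIs of both *Th* and *Ddc* but fewer than 6 of the 9 genes numbered 12 (female) and 17 (male), a choice made after the values were seen. They were deep, with medians of 39241.5 and 26570 UMIs. In the 12 female nuclei there were 48 UMIs of *Th* and 56 of *Ddc*, but 2 of *Dbh*, 1 of *Slc6a2* and 0 of *Npy* and *Hand2*. The 17 male nuclei had 54 UMIs of *Th* and 83 of *Ddc*, with 9 of *Dbh*, 13 of *Slc6a2*, 1 of *Hand2* and 0 of *Npy*. They held sensory markers, some above and some below the level of other neuron-like nuclei. In the female nuclei *Slc17a6* was at 2.13 per 10000 UMIs against 1.47 in the others. *P2rx2*, an ATP receptor of nodose neurons, was at 1.42 against 0.445 (log2 1.68, 1.30 to 2.03). The male nuclei had *P2rx2* at 1.41 against 0.644 (1.14, 0.74 to 1.5). *Gata3* was higher in them by 3.99 (2.75 to 5.28) with 14 UMIs and by 2.84 (1.47 to 3.88) with 8 UMIs, but 13 of the 14 lay in 2 female nuclei, with 7 and 6 UMIs, and the 8 in 2 male nuclei with 4 each. *Piezo2*, *Scn10a*, *Prdm12* and *Avil* were lower than in the other neuron-like nuclei in both libraries. The log2 differences were −1.33 and −1.01 for *Piezo2*, −2.64 and −1.75 for *Prdm12*, and −1.09 and −1.01 for *Avil*. *P2rx3*, *Htr3a* and *Trpv1* had intervals that reached 0 in both libraries.

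*Gata2* had a second place of use. Outside the many-gene nuclei it was at 0.476 per 10000 UMIs (0.317 to 0.689) in female and 0.562 (0.389 to 0.785) in male endothelial cell-like nuclei, against 0.00645 and 0.0302 in neuron-like nuclei. Among nuclei with fewer than 6 genes its male over female ratio was 1.60, and that of *Gata3* 1.35 with an interval from −0.10 to 1.02 on the log2 scale, in contrast to *Dbh*. Of 230 male nuclei with *Gata2*, 28.7% held 6 or more of the 9 genes, and of 102 with *Gata3* 40.2%, against 6.73% of 1561 with *Dbh*. The female shares were 10.4% of 77 nuclei with *Gata2*, 17.9% of 28 with *Gata3* and 7.08% of 113 with *Dbh*. Each gene counts towards the 6 itself, so the shares only describe. How far the depth of nuclei and the rarity of a gene set them was not tested.

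The genes whose levels ran most like each member over clusters were found over 39 cluster profiles, each from 1 library with at least 20 nuclei. *Hand2* and *Dbh* were among each other's nearest (Pearson r 0.924), as were *Hand2* and *Slc6a2* (0.903). *Areg*, amphiregulin, came first for *Dbh* (0.939), *Hand2* (0.930) and *Slc18a2* (0.924), and the Y-linked *Eif2s3y* came next after *Hand2* for *Dbh* (0.920), so that the male or female origin of a profile enters these values. *Ddc* ran with *Htr3a* (0.877), *Th* with *Atp6v1a* (0.853), a subunit of the vesicular proton pump, and with *Chrna3* (0.821), and *Npy* with *Slc6a2* (0.863) and *Phox2a* (0.812). *Gata2* (*Slc7a5*, 0.775) and *Gata3* (*St8sia6*, 0.683) had looser neighbours. The profiles share libraries, depth and scattered transcripts.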

How the data were processed

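Nuclei of the pooled ganglia were captured with a droplet 3′ kit. The authors mapped the reads to mm10 with Cell Ranger 7.1.0, introns included, kept barcodes with a DIEM debris score below 0.5, more than 250 genes and more than 1000 UMIs, and joined the libraries after making them equal in confidently mapped reads. The deposited values are whole UMI counts per gene and nucleus. Libraries are numbered in the barcodes, and their sex was taken from the stated numbers of nuclei and checked with *Xist* and *Ddx3y*. Clusters were rebuilt without the 9 genes and without *Xist*, *Tsix* and Y-linked genes (scikit-learn 1.9.0, igraph 0.11.9; 10 principal components, Louvain, 20 clusters), and were named from marker lists where at least 3 markers were at least 1.5-fold higher. No doublet caller was run, and the 5% of nuclei with most UMIs were left out as an alternative.

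Levels are summed UMIs per 10000 UMIs with exact Poisson 95% intervals, shares have Clopper-Pearson intervals, and ratios, with 0.5 UMI added to both sums, have exact conditional binomial intervals. Genes needed 20 UMIs in a comparison, and 3 UMIs were taken as the floor of a level. Thinning to 1000 UMIs used exact probabilities and left out 19 female nuclei. Computations were run in Python 3.11.15 with scipy 1.17.1 and tested on simulated data. The genes named were the members, the list genes, the nearest genes by cluster profile and those with the highest ratios by rule, and genes named by other choices are said to be so. Members and lists were chosen with earlier results of these data known, and some genes of the lists are not reported here and entered no count over a list. With 1 library per sex no test was made and n is 1 per group.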

Additional observations from a re-analysis of the deposited data

Results flagged for a closer look

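Taken per 10000 UMIs, these values had opposite directions in the libraries, and no difference between the libraries was tested. Over all nuclei, the neuron-like minus other log2 difference of *Dbh* was 0.56 (female) and −0.60 (male), and that of *Npy* was 1.23 and −0.48. With nuclei of 6 or more genes left out, *Th* stood at 1.25 and −0.49 and *Ddc* at 0.92 and −0.82. In the male library nuclei that are not neuron-like held *Th* at 0.320 and *Ddc* at 0.911 per 10000 UMIs, against 0.0729 and 0.174 in the female library.

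Between neuron-like nuclei with 6 or more of the 9 genes and other neuron-like nuclei, *Ntrk3* differed by 1.0 (female) and −2.19 (male), *Apoe*, a glial marker, by −0.58 and 0.47, *Flt1*, an endothelial marker, by 1.0 and −0.55, and *Snap25*, a synaptic protein, by 0.44 and −0.10. The female values rest on 6 nuclei.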

How the results depend on the processing

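No paired analysis was possible because each sex has 1 library. The alternatives for nuclei with 6 or more genes, and those without these nuclei, were chosen after seeing the data. Nuclei with at least 3 genes numbered 39 in the female library, 5.42 when thinned to 1000 UMIs, 19 without the 5% of nuclei with most UMIs and 13 when a gene needed 2 UMIs; in the male library the 900 nuclei became 139 when thinned and 147 at 2 UMIs. Nuclei with at least 6 genes, 9 and 107, became 0.359 and 2.45 when thinned, 4 and 70 without the deepest 5%, and 5 and 60 at 2 UMIs; in the male library they became 69 without *Npy*, *Gata2* and *Gata3*, and 167 with a limit of 5 genes. Depth thus limits how many genes a nucleus can be seen to hold.

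The 4 genes at least 2-fold higher in female neuron-like nuclei became 1 without nuclei of 6 or more genes, where *Ddc* stood at 0.92 and *Gata3* at 0.83 on the log2 scale. A change of sign in neuron-like minus other log2 differences was counted only where the interval over all nuclei left out 0. Without those nuclei the sign changed for *Dbh* (−1.23), *Slc6a2* (−2.75), *Npy* (−1.80) and *Slc18a2* (−0.037) in the female library. In the male library it changed for *Slc6a2* (−1.49) and *Gata3* (−0.29). Not counted, since their intervals over all nuclei reached 0, were *Hand2* in the female library (0.25 to −3.06) and *Th* (0.07 to −0.49) and *Ddc* (0.06 to −0.82) in the male library. Without the deepest 5% the sign changed for *Dbh* (−0.029) and *Slc6a2* (−0.73) in the female and *Slc6a2* (−0.23) in the male library. The 13 pathway genes became 8 without the deepest 5%, where fewer nuclei are left, and 11 without the female nucleus with most UMIs of the 9 genes. The 8 genes at least 2-fold higher in the male library became 7 with classes counted the same or without nuclei of 6 or more genes, and all 9 stayed higher in the male library under the 6 alternatives for that ratio. Counted by the same rule for signs, the other reclusterings changed none.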
